A study of Mus musculus with 6 samples.

Results

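Lipid droplets store triglyceride and cholesteryl ester in the hepatocyte under a single layer of phospholipid, and a small set of proteins coats that layer or shapes the droplet. Perilipins cover the surface and regulate the access of lipases, CIDE proteins sit where droplets touch and move lipid from the smaller to the larger one, and FITM proteins of the endoplasmic reticulum help droplets to form. Several of the genes are induced by fatty acids through PPAR nuclear receptors, and perilipin 2 is a common marker of fatty liver. The genes described here are the perilipins Plin2, Plin3, Plin4 and Plin5, the CIDE genes Cidea, Cideb and Cidec, the ER membrane genes Fitm1 and Fitm2, and Hsd17b13. They were taken from a list of gene names, chosen with earlier results of these data known, and matched through the RefSeq accession of each array probe. All 10 were found, among 22911 named genes on the array, with 15 probes between them, and all 10 passed the filter on dim probes.

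The livers came from 6 male mice, 3 with a liver-specific knockout of Elovl6 (LKO) and 3 controls, titled Flox in the labels. Elovl6 is the elongase that makes stearate from palmitate. Both groups received the same high-sucrose food over 14 days, and food was withdrawn 4 hours before the livers were taken. The promoter that drives the deletion, the strain and the age of the mice are not given in the sources used here. There was 1 one-colour Agilent array for each liver, so every comparison has n = 3 mice in each group, and precision rests on that small number of arrays. The question here is whether the transcripts of droplet proteins differ when the liver makes fat on a sugar diet without this enzyme.

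Signals are given relative to the 75th percentile of the same array, so a value of 1 is the level that 75% of spots stay under. A level of one probe cannot be set against that of another. Of 59305 spots, between 52.1% and 56.6% per array were well above background and 0 were saturated. Elovl6 was 21.3, 43.0 and 22.8 in controls 1, 2 and 3 and 0.228, 0.334 and 0.364 in LKO mice 1, 2 and 3. It fell in LKO (log2 change -6.51 ± 0.30, SE, limma adjusted p = 0.00279), and the exact two-sided permutation p of 0.1 is the smallest that 3 mice against 3 allow. All 9 hepatocyte markers were well above background in all 6 livers, with a summed signal of 5302 to 5588 in controls and 5323 to 5495 in LKO.

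Control 3 stood apart in markers of tissues other than liver. The summed signal of 9 muscle markers was 17.5 in control 3 and at most 2.29 in the other livers. The summed signal of 8 adipocyte markers was 6.66 in control 3, 3.28 in control 1, 2.68 in control 2, and 2.57 to 4.01 in LKO. Adipoq, the adiponectin gene, was 0.532 in control 3, 0.114 in control 1 and 0.0788 in LKO 2, and at most 0.0250 in the others. It was well above background in 2 controls and 1 LKO liver. Ucp1 and Slc7a10 were well above background in none. Of the adipocyte markers 3 could be tested, and of the muscle markers 3, and 0 of either passed. Several droplet genes are also adipocyte or muscle genes, and for Plin4, Plin5, Cidec, Cidea and Fitm1 the values with control 3 left out are given as well. The summed signal of 7 neutrophil markers was 7.98 to 9.25 in controls and 9.34 to 21.8 in LKO, without overlap. Of these 7, Mpo and Ngp were well above background in no liver. Among the 5 tested, 3 were higher in LKO without overlap, S100a8, S100a9 and Retnlg (log2 change 2.43, 2.21 and 1.23). Over all genes tested, 17.3% did not overlap. Camp (0.18) and Elane (-0.19) overlapped between groups. Sums of 8 Kupffer cell markers, those of the resident liver macrophages, overlapped (82.5 to 113 and 102 to 121). Of these 8, 0 were lower in LKO, against 49.2% of all genes tested, and their median log2 change was 0.21. Groups did not overlap for 1 of the 8, Marco (1.25), against 17.3% of all genes tested. Sums of stellate cell markers (96.6 to 104 and 100.1 to 106) and endothelial markers (44.3 to 49.4 and 46.9 to 50.7) overlapped as well, and 0 genes of these lists passed. The part of these cells in the values below was not tested. In a bulk liver sample, fewer cells of a type and less RNA per cell cannot be told apart.

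**Figure D1:**
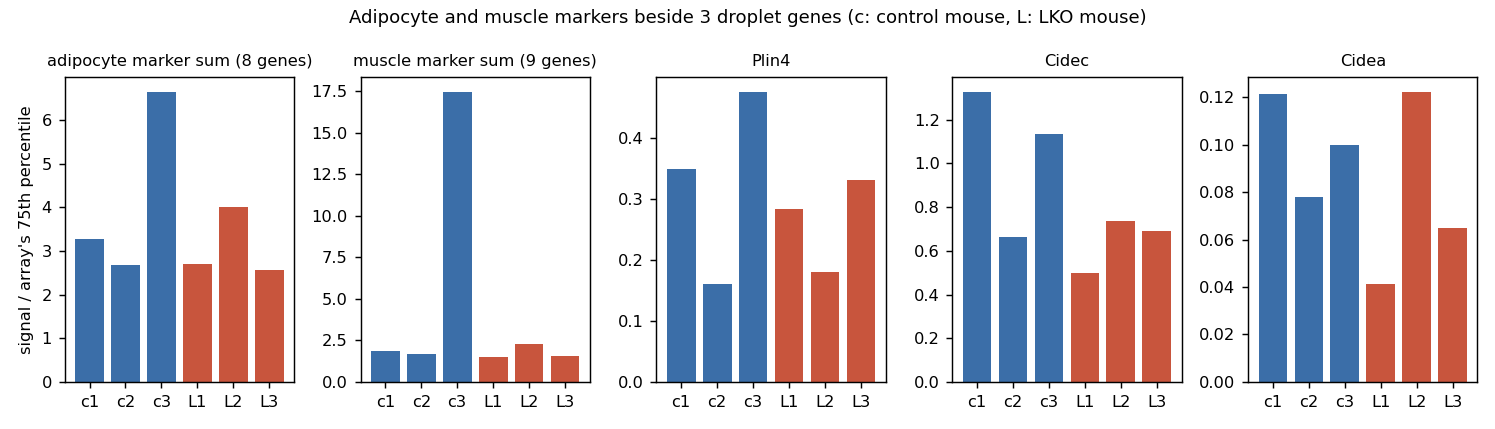
Signal relative to the array's 75th percentile in each liver (c1 to c3, controls; L1 to L3, LKO) for the summed adipocyte and muscle markers and for Plin4, Cidec and Cidea. Control 3 is the highest in both marker sums (6.66 and 17.5) and in Plin4 (0.476), but not in Cidec or Cidea.

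No droplet gene passed the test. Of the 10 genes 0 reached an adjusted p of 0.05 (limma, Benjamini-Hochberg over 14171 genes), where 0.0141% of all genes tested did, and the lowest adjusted p among them was 0.453. At an unadjusted p of 0.05 the count was also 0, against 11.2% of all genes tested. The groups did not overlap for 0 of the 10, against 17.3% of all genes tested. The values of 8 of the 10 were lower in LKO, against 49.2% of all genes tested, and their median log2 change was -0.21, against 0.00313 over all genes tested. Cidea is among the 8 and entered the test through the controls alone, the group where its mean is higher. With only genes well above background on all 6 arrays the count was 7 of 9, and without control 3 it was 7 of 10. The single changes ran from -0.66 for Cidec to 0.16 for Hsd17b13.

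**Figure D2:**
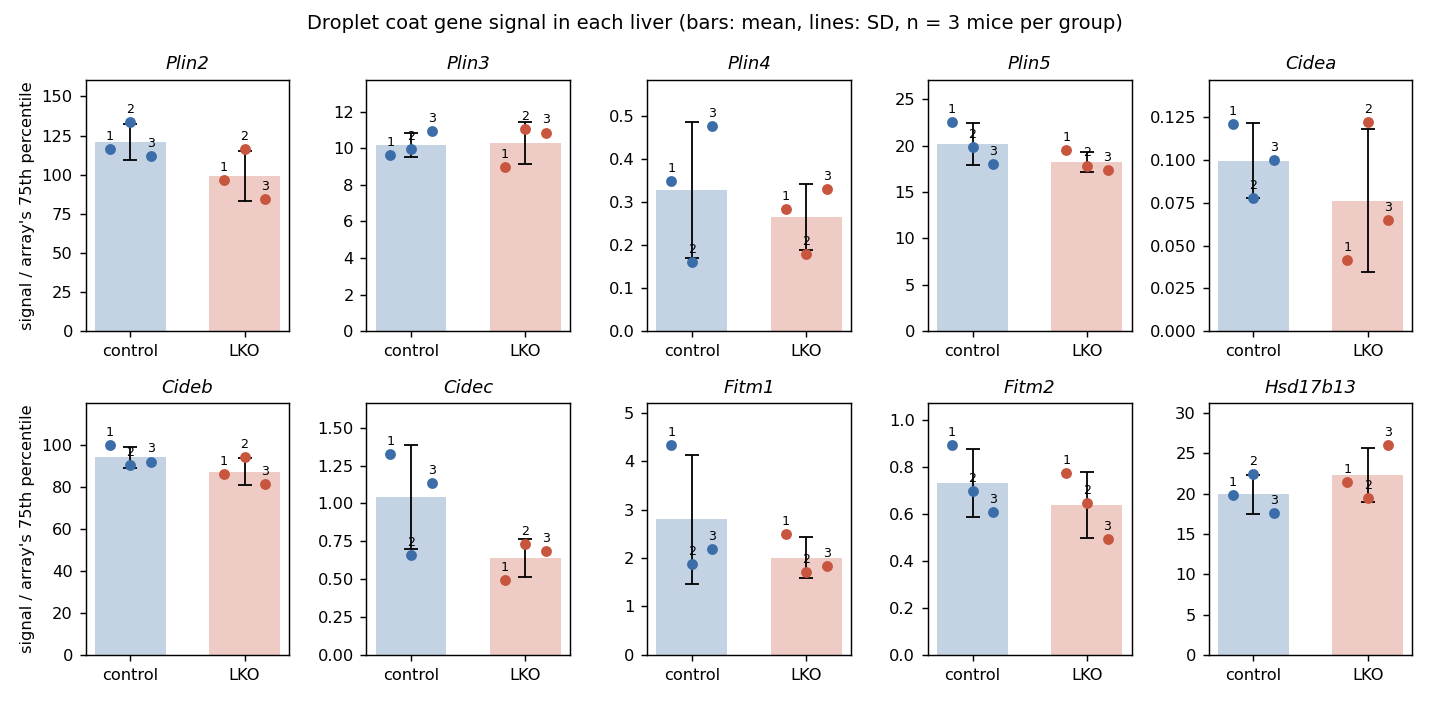
Signal of each droplet gene relative to the array's 75th percentile, with 1 point per mouse (number beside it), the group mean as a bar and the SD as a line, n = 3 per group. The points of the 2 groups overlap in all 10 panels, and the LKO mean is below the control mean in all but Plin3 and Hsd17b13.

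Promoter stretches of 3 genes are shown because these genes cover the range of directions, with Plin2 lower on both of its probes, Plin3 nearly level and Hsd17b13 higher on both. Sequences are RefSeq's for GRCm38.p6, 5′ to 3′ on the gene's strand, and lie outside the gene's annotated span. The Plin2 stretch is chr4:86670218-86670309 (minus strand, 250 to 159 bases before the start), that of Plin3 is chr17:56290512-56290761 (minus strand) and that of Hsd17b13 is chr5:103977389-103977638 (minus strand). Capitals mark AGGTCA, the half-site that nuclear receptors such as PPAR bind in pairs, read on either strand, in Plin2 and Hsd17b13, and the GC box GGGCGG on either strand in Plin3.
Plin2: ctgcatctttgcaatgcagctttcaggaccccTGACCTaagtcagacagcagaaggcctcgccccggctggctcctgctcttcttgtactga
Plin3: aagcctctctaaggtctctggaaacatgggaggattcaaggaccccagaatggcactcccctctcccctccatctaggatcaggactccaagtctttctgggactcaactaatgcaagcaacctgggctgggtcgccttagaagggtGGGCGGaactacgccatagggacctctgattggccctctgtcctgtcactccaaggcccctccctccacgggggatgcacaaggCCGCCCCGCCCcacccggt
Hsd17b13: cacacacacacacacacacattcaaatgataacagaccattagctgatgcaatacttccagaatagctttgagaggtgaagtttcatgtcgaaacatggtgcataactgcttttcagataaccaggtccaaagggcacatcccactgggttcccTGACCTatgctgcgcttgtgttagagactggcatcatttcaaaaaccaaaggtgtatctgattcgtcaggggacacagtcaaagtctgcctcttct

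The half-site began 218 bases before the start in Plin2 and 96 bases before it in Hsd17b13, both on the opposite strand. The Plin2 start counted from lies inside the gene's annotated span, so these distances are not directly comparable. Over the 250 bases before the start it was found in 3 of the 11 promoters listed for 9 of the droplet genes (the third is one of the Plin5 promoters), against 14% of 32851 promoters. The GC box was found in 5 of 11, against 32.7%, and TATAAA in 1, that of Cideb, against 12.4%. The E-box CACGTG (6.02% of promoters) and the full direct repeat of AGGTCA spaced by 1 base (0.0335%) were in none of the 11. Motifs were searched as exact letters on both strands. A match is a description of the letters and not a binding site.

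Among the perilipins, Plin2, the main coat protein of droplets in fatty liver, had the lowest adjusted p. Its brighter probe read 116.2, 133.9 and 112.1 in controls 1, 2 and 3 and 96.5, 116.4 and 84.7 in LKO mice 1, 2 and 3. Only LKO 2 reached into the control range, and LKO 3 was the lowest liver. The mean was 121 ± 11.6 (SD, n = 3) in controls and 99.2 ± 16.03 in LKO, a difference of 1.22-fold (log2 change -0.29 ± 0.14, SE, adjusted p = 0.503). The 95% interval of the ratio of LKO to control ran from 0.649 to 1.03.

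The other Plin2 probe was dimmer. It read 6.04, 7.22 and 5.67 in controls 1, 2 and 3 and 4.69, 5.27 and 4.19 in LKO mice 1, 2 and 3, so that every LKO liver lay below every control. In a fit over 27950 probes its log2 change was -0.42 ± 0.13 (SE) with an adjusted p of 0.365. Among the 15 droplet probes it was the one without overlap, against 17% of all probes tested, and the one with an unadjusted p under 0.05, against 10.8%. A single probe of 15 is no larger a share than over all probes. In that fit 0 of the 15 passed after adjustment, against 0.0215% of all probes.

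Plin3, a soluble perilipin that coats small new droplets, was nearly level. It read 9.65, 9.93 and 10.9 in controls 1, 2 and 3 and 8.97, 11.1 and 10.9 in LKO mice 1, 2 and 3. The livers of both groups were mixed in order, with LKO 2 the highest and LKO 1 the lowest. The log2 change was 0.01 ± 0.11 (SE, adjusted p = 0.979), and below 0 with median scaling (-0.027) and with normexp (-0.014). With the array's position on the slide as a covariate it was -0.18, in a fit that sets only LKO 1 against the controls. The interval of the ratio ran from 0.838 to 1.21. Within-group spread put it at the 45.4th percentile of all genes tested.

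Plin4, the perilipin of adipose tissue and muscle, was the most variable. It read 0.349, 0.161 and 0.476 in controls 1, 2 and 3 and 0.284, 0.180 and 0.331 in LKO mice 1, 2 and 3. Control 3 was the highest liver and control 2 the lowest, so the LKO livers lay inside the control range. Plin4 had a log2 change of -0.22 ± 0.42 (SE, adjusted p = 0.886), and the interval from 0.430 to 1.72 leaves room for a change in either direction. Without control 3, the liver with the highest adipocyte and muscle markers, the log2 change was 0.12 (adjusted p = 0.959). The part of those markers in the Plin4 value was not tested.

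Plin1, the perilipin of adipocytes and the one perilipin not among the 10 genes, was well above background in control 3 only, at 0.0777, and lay between 0.0142 and 0.0173 in the other livers. It was not tested for that reason. Control 3 was the highest liver for both perilipins typical of adipose tissue, Plin1 and Plin4, but Plin1 is itself among the 8 adipocyte markers. LKO 2, the liver with the next highest adipocyte sum (4.01), had Plin4 at 0.180, above only control 2 (0.161).

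Plin5, the perilipin of oxidative tissues that tethers droplets to mitochondria, was slightly lower on both of its probes. The brighter probe read 22.6, 19.9 and 18.1 in controls 1, 2 and 3 and 19.5, 17.9 and 17.3 in LKO mice 1, 2 and 3. Control 1 was the highest liver and LKO 3 the lowest, with LKO 1 inside the control range. The log2 change was -0.14 ± 0.11 (SE, adjusted p = 0.676) on this probe and -0.24 ± 0.16 on the other, and the ratio had an interval of 0.756 to 1.09. Without control 3 the log2 change on the brighter probe was -0.22 (adjusted p = 0.658). The part of muscle markers in the Plin5 value was not tested.

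Of the CIDE genes, Cidec showed the largest difference in size of all 10 genes. Cidec, also named FSP27, enlarges droplets in white fat and is expressed in fatty liver. It read 1.33, 0.661 and 1.13 in controls 1, 2 and 3 and 0.497, 0.734 and 0.689 in LKO mice 1, 2 and 3. Controls 1 and 3 were above every LKO liver, while control 2 lay below LKO 2 and LKO 3. The mean was 1.04 ± 0.343 (SD, n = 3) in controls and 0.640 ± 0.126 in LKO, a difference of 1.58-fold (log2 change -0.66 ± 0.28, SE, adjusted p = 0.453). The interval of the ratio ran from 0.398 to 1.01.

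The same 2 controls, 1 and 3, also had the highest control values of the adipocyte marker sum and of Adipoq. Not every adipocyte marker ran this way. Adrb3 was highest in control 2 and lowest in control 1. Plin1 was lower in control 1 than in control 2, and well above background in neither. Without control 3 the log2 change of Cidec was -0.57 (adjusted p = 0.681), and over all livers left out in turn it lay between -0.96 and -0.45. The part of the adipocyte markers in the Cidec value was not tested.

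Cidea, best known from brown fat, was dim. It was well above background in all 3 controls and in 1 of the 3 LKO livers, and so entered the test through the controls alone. It read 0.121, 0.0778 and 0.1000 in controls 1, 2 and 3 and 0.0414, 0.122 and 0.0648 in LKO mice 1, 2 and 3. LKO 2 was the highest of all 6 livers and LKO 1 the lowest. Cidea had a log2 change of -0.51 ± 0.38 (SE, adjusted p = 0.670), with an interval of the ratio from 0.373 to 1.33. The value moved with single livers, to -0.14 without LKO 1, -0.92 without LKO 2 and -0.49 without control 3. It was -0.10 with normexp. With the array's position on the slide as a covariate it was -1.24, in a fit that sets only LKO 1 against the controls. LKO 2 was also the LKO liver with the highest adipocyte marker sum, 4.01, and the part of those markers was not tested.

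Cideb, the CIDE protein of hepatocytes, which takes part in the loading of lipid onto VLDL, varied least. Its brighter probe read 99.95, 90.4 and 92.2 in controls 1, 2 and 3 and 86.3, 94.3 and 81.4 in LKO mice 1, 2 and 3. LKO 2 lay above controls 2 and 3, and the other LKO livers lay below every control. Its log2 change came to -0.11 ± 0.09 (SE, adjusted p = 0.706) on this probe and -0.16 ± 0.11 on the other. The interval of the ratio, 0.794 to 1.08, was the narrowest of the 10 genes, and the within-group spread stood at the 22.6th percentile of all genes tested, against the 98.4th for Plin4 and the 97.8th for Cidea.

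**Figure D3:**
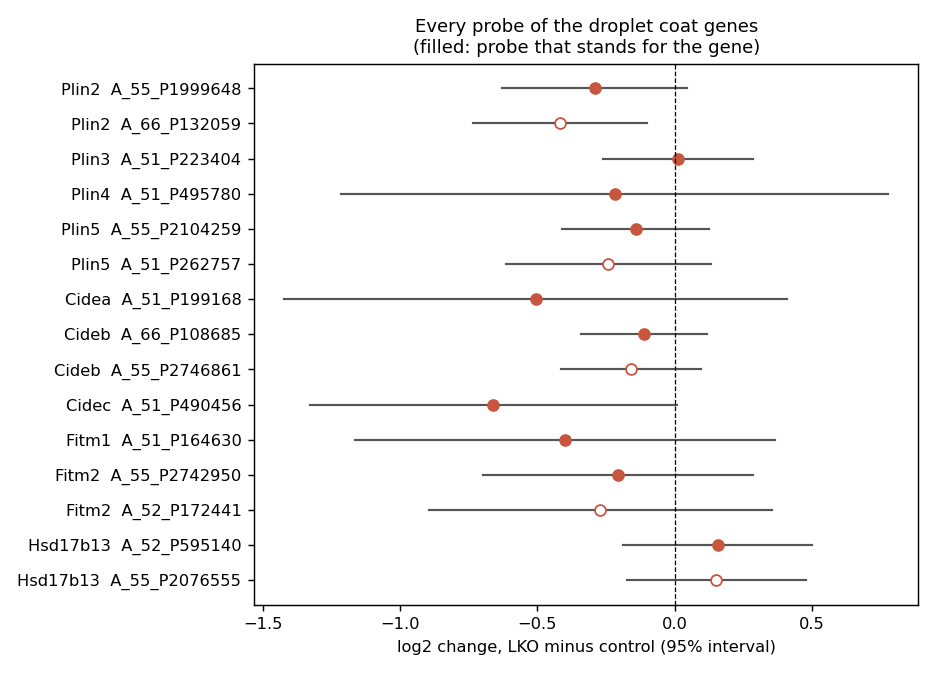
Log2 change (LKO minus control) with its 95% interval for each of the 15 probes, fitted over all probes that passed the filter, n = 3 mice per group. The second Plin2 probe is the one whose interval lies wholly on one side of 0, and in the 5 genes with 2 probes both point the same way.

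Fitm1 and Fitm2 encode ER membrane proteins that help triglyceride to be packed into droplets, Fitm1 mostly in muscle and Fitm2 in most tissues. Fitm1 read 4.33, 1.88 and 2.19 in controls 1, 2 and 3 and 2.49, 1.71 and 1.83 in LKO mice 1, 2 and 3. Control 1 stood far above the other 5 livers, and LKO 1 lay above controls 2 and 3. The log2 change was -0.40 ± 0.32 (SE, adjusted p = 0.692), and it was -0.036 without control 1 and -0.53 without control 3, the liver with the highest muscle markers. The part of muscle markers in the Fitm1 value was not tested.

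Fitm2 read 0.890, 0.696 and 0.607 in controls 1, 2 and 3 and 0.773, 0.644 and 0.493 in LKO mice 1, 2 and 3. Control 1 was again the highest and LKO 3 the lowest, and the other livers of both groups alternated between them. Fitm2 had a log2 change of -0.21 ± 0.20 (SE, adjusted p = 0.754) on the brighter probe and -0.27 ± 0.26 on the other. On the brighter probe it was -0.054 without control 1, -0.033 without LKO 3 and -0.36 without LKO 1.

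Hsd17b13, a hepatocyte enzyme on the droplet surface that acts on retinol and is raised in fatty liver, was the one gene besides Plin3 with a higher value in LKO. Its brighter probe read 19.9, 22.4 and 17.6 in controls 1, 2 and 3 and 21.4, 19.5 and 26.0 in LKO mice 1, 2 and 3. LKO 3 was the highest liver and control 3 the lowest, and LKO 1 and LKO 2 lay inside the control range. The log2 change was 0.16 ± 0.14 (SE, adjusted p = 0.727), with an interval of the ratio from 0.882 to 1.41, and the second probe gave 0.15 ± 0.14.

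Control 1 was the highest liver for 5 of the 10 genes (Plin5, Cideb, Cidec, Fitm1 and Fitm2), against 24.4% of all genes tested, a pattern chosen after the values were seen. LKO 3 was the lowest for 4 of the 10 genes, Plin2, Plin5, Cideb and Fitm2. The share of all genes with LKO 3 lowest was not computed, so that count is description only. Without control 1 the lower values numbered 9 of 10, since Plin3 then had a log2 change of -0.02.

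The genes whose values over the 6 livers were most like those of the members with the largest changes were found by Euclidean distance between centred log2 values. For Cidec, whose own distance from a flat line was 1.18, they were Mpp7 (distance 0.362), Ccn1 (0.445) and Lgals2 (0.450). For Cidea (1.35 from a flat line) they were Tsga8 (0.563), Ifit1 (0.597) and Cmpk2 (0.660), the latter pair being interferon-stimulated genes. Over only 6 livers many genes lie close to any pattern.

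Genes that work on the droplet from other sides were set beside these, in lists chosen with earlier results of these data known. In each of the 6 lists 0 genes passed the adjusted threshold (limma). Among 12 lipases and their regulators, 8 had lower values, 4 of them at an unadjusted p of 0.05 (5.6% of all genes tested were lower at that p), with a median log2 change of -0.18. Pnpla3, a droplet-bound acylhydrolase, differed by -2.78 ± 0.54 (SE, adjusted p = 0.192) and Abhd5, the coactivator of adipose triglyceride lipase that perilipins bind, by -0.87 ± 0.22 (adjusted p = 0.259). Pnpla2, which encodes that lipase, had a log2 change of 0.00139 ± 0.09. Of the 12, 5 did not overlap between groups, against 17.3% of all genes tested.

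In triglyceride synthesis, 12 of 15 genes had lower values with a median of -0.11. Gpam, the acyltransferase of the first step, had a log2 change of -1.08 ± 0.20 (SE, adjusted p = 0.165) and Agpat2, the acyltransferase of the next, -0.30 ± 0.12 (adjusted p = 0.434). The groups did not overlap for 3 of the 15, a share close to the 17.3% of all genes tested. Dgat2, which makes the final triglyceride, was at -0.14 ± 0.09.

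Of 17 tested genes for droplet formation and ER contact, 13 had lower values, but the median was -0.08 and all lay between -0.29 and 0.30. Groups did not overlap for 4 of the 17, with 2 lower and 2 higher in LKO, against 17.3% of all genes tested. Mospd2, a tether between the ER and droplets, had a log2 change of -0.24 ± 0.09 (SE, adjusted p = 0.421), Aup1, a droplet protein of ER quality control, 0.19 ± 0.08 (adjusted p = 0.427) and Lpcat2, a phospholipid acyltransferase on droplets, 0.30 ± 0.15 (adjusted p = 0.525).

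In the list of other droplet-resident enzymes the groups did not overlap for 10 of 16 genes, against 17.3% of all genes tested, and 12 had lower values. The list was chosen with earlier results of these data known, so these counts are description only. Rdh16, a retinol dehydrogenase, had the largest difference (-1.30 ± 0.22, SE, adjusted p = 0.162), and Lss, the lanosterol synthase of sterol synthesis, had the smallest p (-0.99 ± 0.14, adjusted p = 0.122). The median of the list was -0.20. Sterol synthesis enzymes are in it because part of their protein lies on droplets. Besides Lss these are Nsdhl (-1.12 ± 0.20), Sqle (-1.18 ± 0.30) and Hsd17b7 (-0.63 ± 0.13), all lower in LKO without overlap. With Rdh16 and Cyb5r3 (-0.39) they were the 6 genes lower at an unadjusted p of 0.05 (limma), against 5.6% of all genes tested.

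VLDL secretion, the route by which the liver exports triglyceride, had a median of 0.04 with 5 of 11 genes lower. For 4 of the 11 the groups did not overlap, with 2 lower and 2 higher in LKO, against 17.3% of all genes tested. Sar1b, a GTPase of the vesicles that carry large lipoproteins, was at -0.22 ± 0.08 (SE, adjusted p = 0.409), Mttp, the transfer protein that loads Apob, at -0.28 ± 0.12 (adjusted p = 0.454) and Apoa4, an apolipoprotein, at -0.65 ± 0.37 (adjusted p = 0.577).

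Among 15 regulators of perilipin and CIDE genes, 7 had lower values, with a median of 0.02. Non-overlap was seen for 3 of the 15, against 17.3% of all genes tested. Rxra, the partner of PPARs on DNA, was at 0.28 ± 0.09 (SE, adjusted p = 0.341), Creb3l3, a fasting-induced factor of hepatocytes, at 0.28 ± 0.10 (adjusted p = 0.379) and Ppargc1a, a coactivator of PPARs, at -0.41 ± 0.26 (adjusted p = 0.614). Ppara and Pparg themselves were at 0.06 ± 0.12 and -0.22 ± 0.23.

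**Figure D4:**
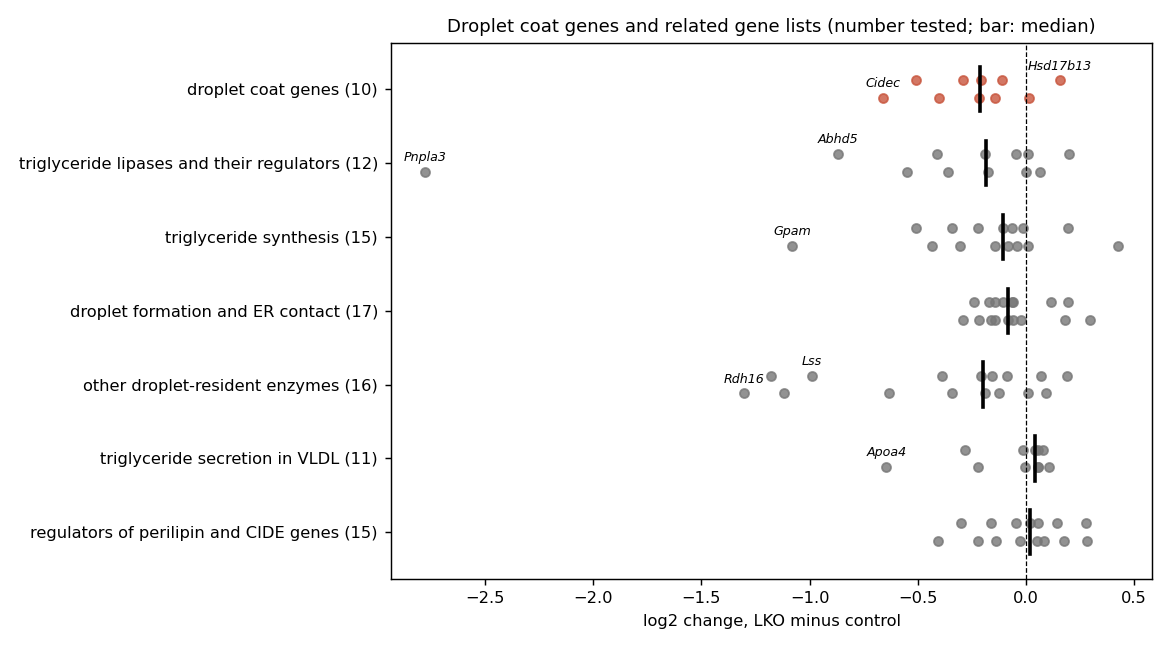
Log2 change (LKO minus control) of each droplet gene and of each tested gene in the 6 related lists, with 1 point per gene and the list median as a bar. The droplet genes lie between -0.66 and 0.16, while single genes of the lipase, synthesis and enzyme lists reach -2.78, -1.08 and -1.30.

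**Figure D5:**
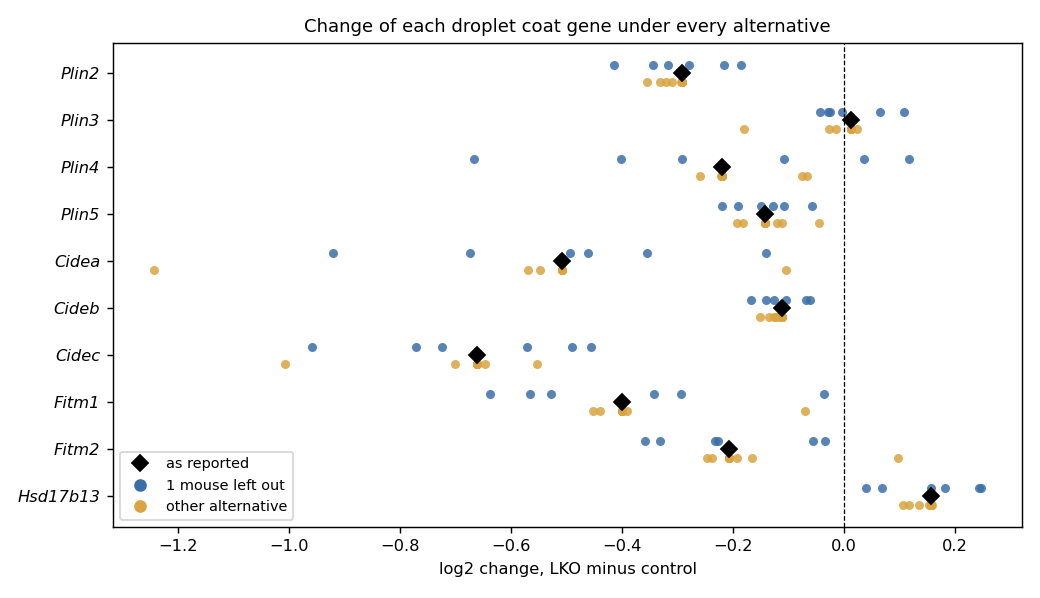
Log2 change (LKO minus control) of each droplet gene as reported (diamond), with each mouse left out in turn and under the other alternatives. Plin2, Plin5, Cidea, Cideb, Cidec and Fitm1 stay below 0 and Hsd17b13 above it under those run, while Plin3, Plin4 and Fitm2 reach both sides.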

How the data were processed

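The scanned Cy3 images were read with Feature Extraction 11.5.1.1, per the file headers. Of the deposited intensity columns, the processed signal is already corrected for background, while the foreground and background columns are uncorrected. Flags for background, saturation and outliers are other deposited values from the same software. The authors' value table, an alternative here, equals the processed intensity times 1 constant per array (2.08 to 2.48, deviation at most 5e-10). It is linear, not centred and of the same direction, with column medians of 55.3, 62.9 and 61.5 in controls and 63.7, 59.1 and 62.2 in LKO, and the rule behind the constants is unknown.

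From these, each array's 75th percentile was subtracted from its log2 processed signals. Control spots and 64 to 111 outlier spots per array were left out. Accessions without versions were matched to RefSeq (GRCm38.p6), which named 32994 of 56605 probes with 1 symbol, 0 with several and 23611 with none. The arrays name an earlier build, so coordinates are printed only for promoters. A gene was its probe with the highest mean, tested if well above background on all 3 arrays of a group with at least 2 values per group (14171 genes). limma 3.58.1 in R 4.3.3 (lmFit, eBayes, two-sided, no block) compared LKO with control, adjusted by Benjamini-Hochberg over all genes, or all probes, at 0.05. The fit was also run on simulated data, where the changes put in were larger than that of any droplet gene. Recovery of changes as small as those of the droplet genes was not tested. Markers and related genes came from 13 lists (145 of 146 entries on the array, 3 under an older symbol). All members and Elovl6 were named, from each related list the 2 genes with the smallest p and the one with the largest change, and for the 2 members with the largest change the 3 nearest genes. Pnpla2, Dgat2, Nsdhl, Sqle, Hsd17b7, Cyb5r3, Ppara, Pparg, Plin1 and the single markers named from the cell type lists, such as Adipoq and Elane, were added after their values were seen. Members and lists were chosen with earlier results of these data known. Alternatives were other normalizations, background correction, filters, probe rules, tests, blocks and each mouse left out.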

Additional observations from a re-analysis of the deposited data

How the results depend on the processing

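Under each of 16 alternatives, 0 of the 10 droplet genes passed the threshold and between 7 and 9 had lower values in LKO. Without any overlap between groups there was 1 droplet gene with quantile normalization (Cideb) and 1 with the mean over a gene's probes (Plin2). With 1 mouse left out there were 0 to 3, where fewer mice make overlap less likely. The share over all genes was taken only for the fit as reported (17.3%), so these counts are description only. Plin3 turned to -0.027 with median scaling, -0.014 with normexp and -0.18 with the slide position as a covariate, and lay between -0.042 and 0.11 with 1 mouse left out. Plin4 lay between -0.67 and 0.12 with 1 mouse left out. Fitm2 was at 0.10 with the slide position. For every gene that fit sets only LKO 1 against the controls, since LKO 2 and LKO 3 alone held the other position. The cause of the other turns was not tested. The count of all genes past the threshold, 2 as reported, was 16 with normexp, 13 with trend and robust eBayes, 1 without a filter, 1 with probes above background on all 6 arrays, 1 with the slide position, and 1 to 9 with 1 mouse left out (9 without LKO 1). The count of probes, 6 as reported, was 13, 24, 25, 2, 1 and 3 with median scaling, normexp, trend and robust eBayes, no filter, all 6 arrays and the slide position, and 2 to 10 with 1 mouse left out. With the replicate block, 3 genes passed. Mice with the same number did not deviate together (correlations over genes of 0.0449, -0.0547 and -0.0700), so the numbers were not taken to pair mice, and no call on a droplet gene changed. A block for slide or scan was not run, since all arrays lay on 1 slide with 1 scan. Cidea was left out where probes had to be above background on all 6 arrays, and its dim signal limits its precision.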
